A study of Mus musculus with 622 samples.

Results

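The genes described here are 34 that carry a newly made protein into the endoplasmic reticulum (ER) and process it there, of 44448 genes measured in the study. They were taken as a fixed list and read by their role. It holds 8 genes of the signal recognition particle (SRP) and its receptor, 7 of the Sec61 channel and its accessory proteins, 4 of the translocon-associated protein (TRAP) complex, 5 of the signal peptidase, 8 of the oligosaccharyltransferase and 2 p24 cargo receptors. The study sequenced RNA of 622 single cells taken from pancreatic islets of C57BL/6 mice of wild-type genotype, with no treatment named. A Fluidigm C1 microfluidic chip held each cell apart, and every cell gave a library of its own. The labels name no animal, chip or age, so all cells are 1 sample, and the values below are descriptions of cells with no test. Values are RPKM, read numbers divided by the length of the gene and by the cell's mapped reads.

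A secreted protein starts with a signal peptide, which SRP binds as it leaves the ribosome. SRP docks on its receptor in the ER membrane, the chain passes through the Sec61 channel, signal peptidase cuts the signal peptide off, and oligosaccharyltransferase adds a sugar tree to asparagines of the chain. Islet endocrine cells make their hormones as precursors with a signal peptide, so entry into the ER and signal peptide removal stand at the start of hormone production.

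A cell was kept when 1000 or more of its genes reached 1 RPKM, as in 593 of 622. A kept cell joined a group where 1 hormone made up at least 90% of the summed Ins1, Ins2, Gcg, Sst and Ppy RNA. This gave 395 insulin cells, 33 glucagon cells, 13 somatostatin cells and 11 PP (pancreatic polypeptide) cells. The other 141 kept cells, in which no hormone reached that share, were left out as possible doublets. The share is among hormones only, and some insulin cells held little hormone RNA, from 0.199% to 78.8% of RPKM with a median of 45.1%. With hormones at 5% or more of RPKM, 381 insulin, 33 glucagon, 12 somatostatin and 10 PP cells would remain. Marker genes that did not set the groups were read as a check of the labels. The glucose transporter gene Slc2a2 averaged 149 RPKM in insulin cells and 1.09 in glucagon cells, and the transcription factor gene Irx2 averaged 0.648 and 12.3 RPKM. Hhex averaged 259 RPKM in somatostatin cells and between 1.44 and 2.74 in the other groups. For the PP label the check was mixed. Pyy averaged 71193 RPKM in PP, 53973 in somatostatin, 10753 in glucagon and 461 in insulin cells, and Etv1 averaged 11.2 RPKM in PP cells, below its 43.8 in glucagon and 58.0 in somatostatin cells. Median depth, estimated from the RPKM values, was 1130400, 1142614, 994729 and 1139930 reads in the insulin, glucagon, somatostatin and PP groups. In the same order, medians of 5259, 4576, 4371 and 3798 genes reached 1 RPKM. Mitochondrial genes held medians of 11.1%, 15.5%, 9.19% and 11.7% of RPKM. The table mixes columns at full precision with columns rounded to 4 decimals, which differ in depth, detected genes and hormone share. The insulin group had 226 and 169 of them, the glucagon group 17 and 16, the somatostatin group 6 and 7, and the PP group 6 and 5. Insulin cells had medians of 809396 reads, 5707.5 genes at 1 RPKM and 39.0% hormone RNA in full-precision columns. In rounded columns these medians were 1692815 reads, 4140 genes and 53.9%, so the deeper columns held fewer genes. At least 3 markers of an acinar, ductal, endothelial, immune, stellate or glial class reached 10 RPKM in 16, 2, 1 and 1 cells of the 4 groups.

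Promoter sequences are shown for members that were at least 2-fold lower in glucagon than in insulin cells, since several genes of ER protein handling share sequence elements near their start. The RefSeq promoter table (GRCm38.p6, 250 bases before to 50 after the start) held 25 of the 34 members and 6 of the 10 members lower by that much. In 2 of these the 150 bases before the start overlapped no annotated exon. Both are printed 5′ to 3′ on the strand of the gene, Rpn1 at chr6:88084323-88084472 and Sec63 at chr10:42761346-42761495, both on the + strand. The third line is a stretch of 30 bases from Krtcap2 at chr3:89246481-89246510, + strand, which holds the single match among the members to ER stress response element II, which is ATTGG, any base and CCACG. In the first 2 lines capitals mark CCACG on either strand, which this element and the longer ER stress response element both hold. In the last line they mark the whole match. It begins at base 18 from the most downstream Krtcap2 start in the promoter table. The annotated gene begins farther upstream, at chr3:89245904, so the match lies inside it.
Rpn1: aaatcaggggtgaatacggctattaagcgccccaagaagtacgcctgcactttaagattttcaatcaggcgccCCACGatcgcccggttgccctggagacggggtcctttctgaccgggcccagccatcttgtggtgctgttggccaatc
Sec63: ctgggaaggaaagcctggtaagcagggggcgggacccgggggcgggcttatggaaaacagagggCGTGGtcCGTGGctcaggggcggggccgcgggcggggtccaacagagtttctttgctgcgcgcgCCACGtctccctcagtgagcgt
Krtcap2: gggacacggATTGGACCACGgacggggcgt
The Rpn1 stretch holds CCACG 1 time and the Sec63 stretch 3 times. Searched on both strands, ER stress response element II was in 1 of 25 members (4%), in 0.0444% of 27025 genes and in 0.287% of the 1740 genes that averaged 20 RPKM or more in insulin cells. The longer ER stress response element, which is CCAAT, 9 bases of any kind and CCACG, was in 0 of 25 members, 0.137% of genes and 0.517% of the 1740, and TGACGTGG, known from the unfolded protein response, was in 0 of 25, 0.714% and 1.49%. The short sequence CCACG, which lies inside both stress elements and was added after the data were seen, was in 17 of 25 members (68%), in 35.5% of all genes and in 55.3% of the 1740. Promoter windows of members had a median GC content of 59.3%, those of the 1740 genes 60.7% and those of all genes 52.7%. These matches describe the letters in the windows and show no binding.

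In insulin cells the 34 members together had a median of 5142 RPKM per cell, with a lowest cell at 89.1 and a highest at 13688. The sum had a median of 2967 RPKM in glucagon cells (1237 to 5638), 5113 in somatostatin cells (2907 to 8342) and 3684 in PP cells (1067 to 6513). The glucagon median was the lowest of the 4, and the highest glucagon cell, at 5638 RPKM, lay below the upper quartile of insulin cells, 6853 RPKM. All 4 ranges overlapped. As a share of RPKM outside hormone and mitochondrial genes, the members' medians were 1.54%, 1.08%, 1.23% and 1.17% in the insulin, glucagon, somatostatin and PP groups. Within the full-precision columns the insulin and glucagon medians of the sum were 5346 and 2967 RPKM, and within the rounded columns 4897 and 2993 RPKM.

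**Figure D1:**
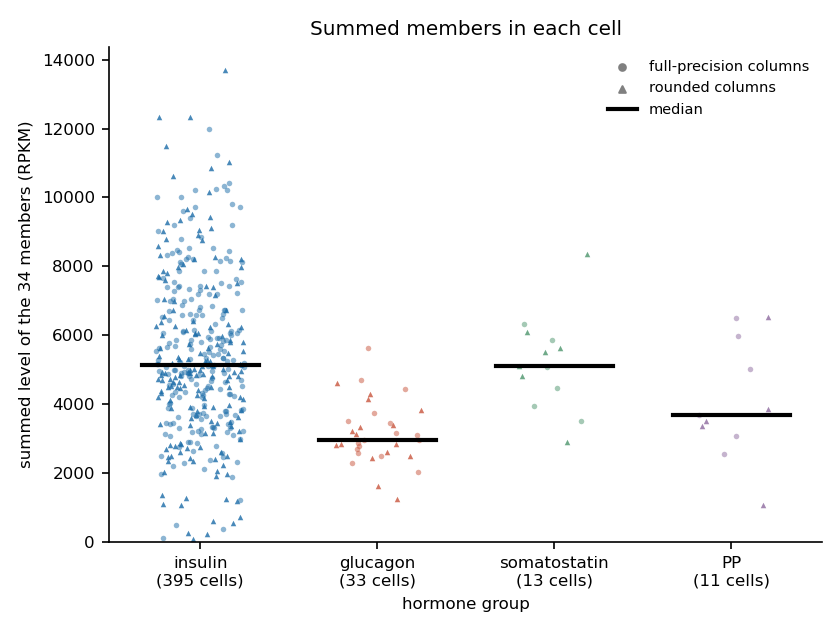
Summed RPKM of the 34 members in each cell (y axis) for the 4 hormone groups (x axis), with circles for full-precision and triangles for rounded columns and a bar at the median. The glucagon median of 2967 RPKM lies below the insulin median of 5142 RPKM, and the ranges overlap.

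Levels differed widely between members within insulin cells, on the RPKM scale, which is per gene length. The highest means were those of Ssr4 (560.0 RPKM), Ostc (413), Sec61b (389), Tram1 (307), Spcs1 (294), Ssr2 (283) and Sec61g (269.9). The lowest were those of Sec61a2 (5.82), Stt3b (15.9), Srp54a (21.2) and Sec63 (27.6). Ssr4, Ostc and Sec61b, which are small membrane subunits, headed the list, and the alternative catalytic or channel subunits Stt3b and Sec61a2 closed it. For Srp54a the reads can also belong to its near-identical copies Srp54b and Srp54c, so its level is uncertain. Reads of Srp9, Srpr, Ssr1, Spcs1, Spcs2, Sec11a, Rpn1, Rpn2, Stt3b and Krtcap2 may include those of an annotated gene that overlaps each of them, since strand was not stated for the counting.

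**Figure D2:**
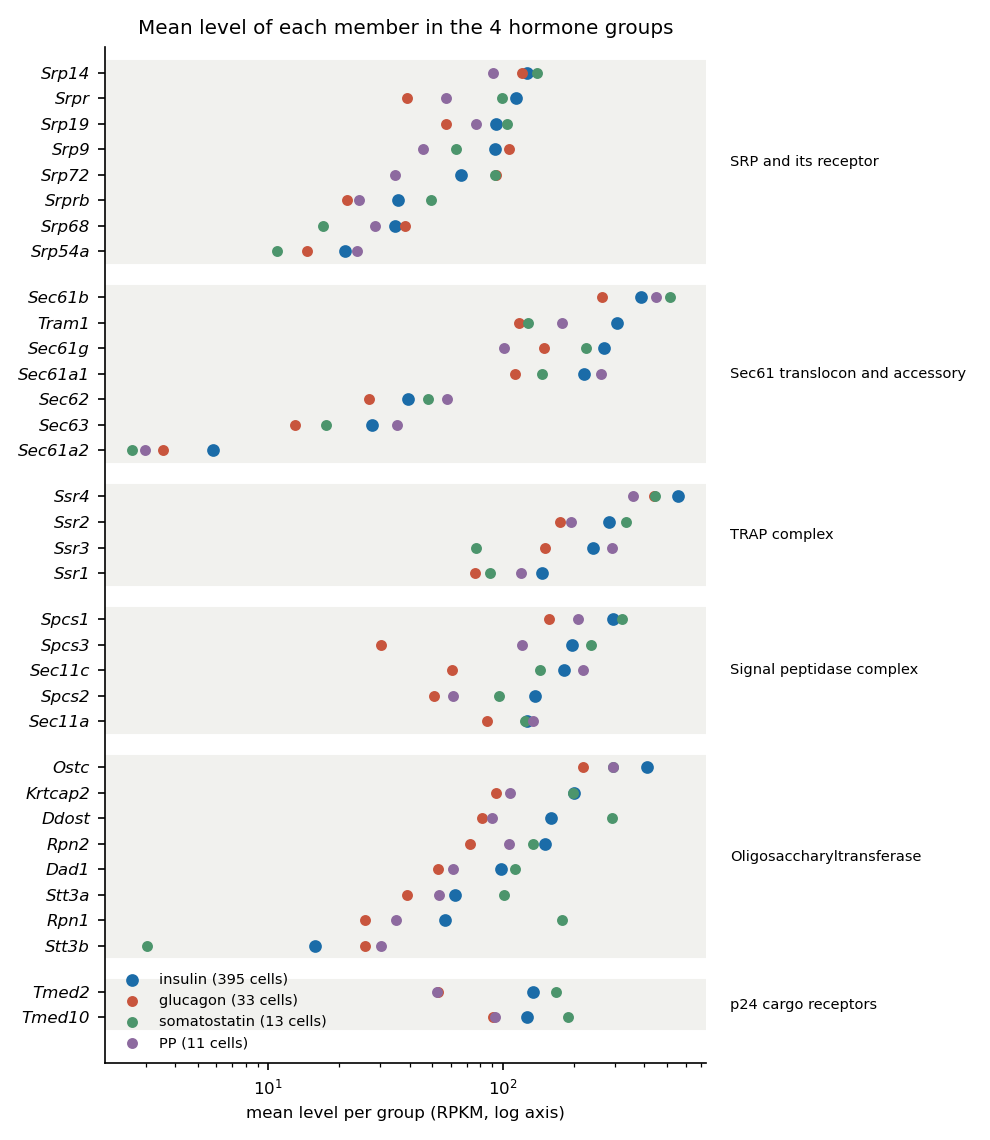
Mean RPKM (x axis, log scale) of each of the 34 members (y axis, grouped by role) in the 4 hormone groups (colours). In most rows the glucagon mean lies left of the insulin mean, and Spcs3 shows the widest gap between them, 30.3 against 196 RPKM.

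Glucagon cells against insulin cells was the comparison with the most cells. The median member was lower in glucagon cells, with a log2 ratio of means of -0.78, computed as log2((glucagon mean + 1) / (insulin mean + 1)), against -0.20 over all 12665 genes compared. Of the 34 members, 30 had a ratio below 0, where 58.4% of all genes did. Ratios were at least 2-fold lower for 10 members, 29.4% of them, where the background was 22.6%, and at least 2-fold higher for 0 members, where the background was 10.7%. The 10 were Spcs3, Sec11c, Srpr, Spcs2, Tram1, Tmed2, Rpn1, Krtcap2, Rpn2 and Sec63. Of these 10, 7 were at least 2-fold lower in both column sets, and Rpn1, Krtcap2 and Sec63 were not. In the full-precision columns 12 members (35.3%) were that low, where 31.0% of all genes were. In the rounded columns 16 members (47.1%) were, where 29.4% of all genes were. The share of all genes that low in both sets was not counted, here or in the other comparisons. In both column sets taken separately 28 members were below 0, where 41.3% of all genes were. Rescaled without hormone and mitochondrial genes, the members' median was -0.57 and that of all genes -0.01, so the gap between them was -0.57 in place of -0.58, while 6 members (17.6%) were at least 2-fold lower, where 18.8% of all genes were. Insulin cells matched to glucagon cells on detected genes gave a member median of -0.81. Without the cells that held markers of another class it was -0.78. Of 4 ductal markers 3 were at 0 in glucagon cells, and the other, Spp1, had a median of 50.5 RPKM there and 0.361 in insulin cells. Of 7 acinar markers 5 were at 0 in glucagon cells, and the part of the lower gene number and higher mitochondrial share of glucagon cells in these ratios was not tested beyond the matching.

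**Figure D3:**
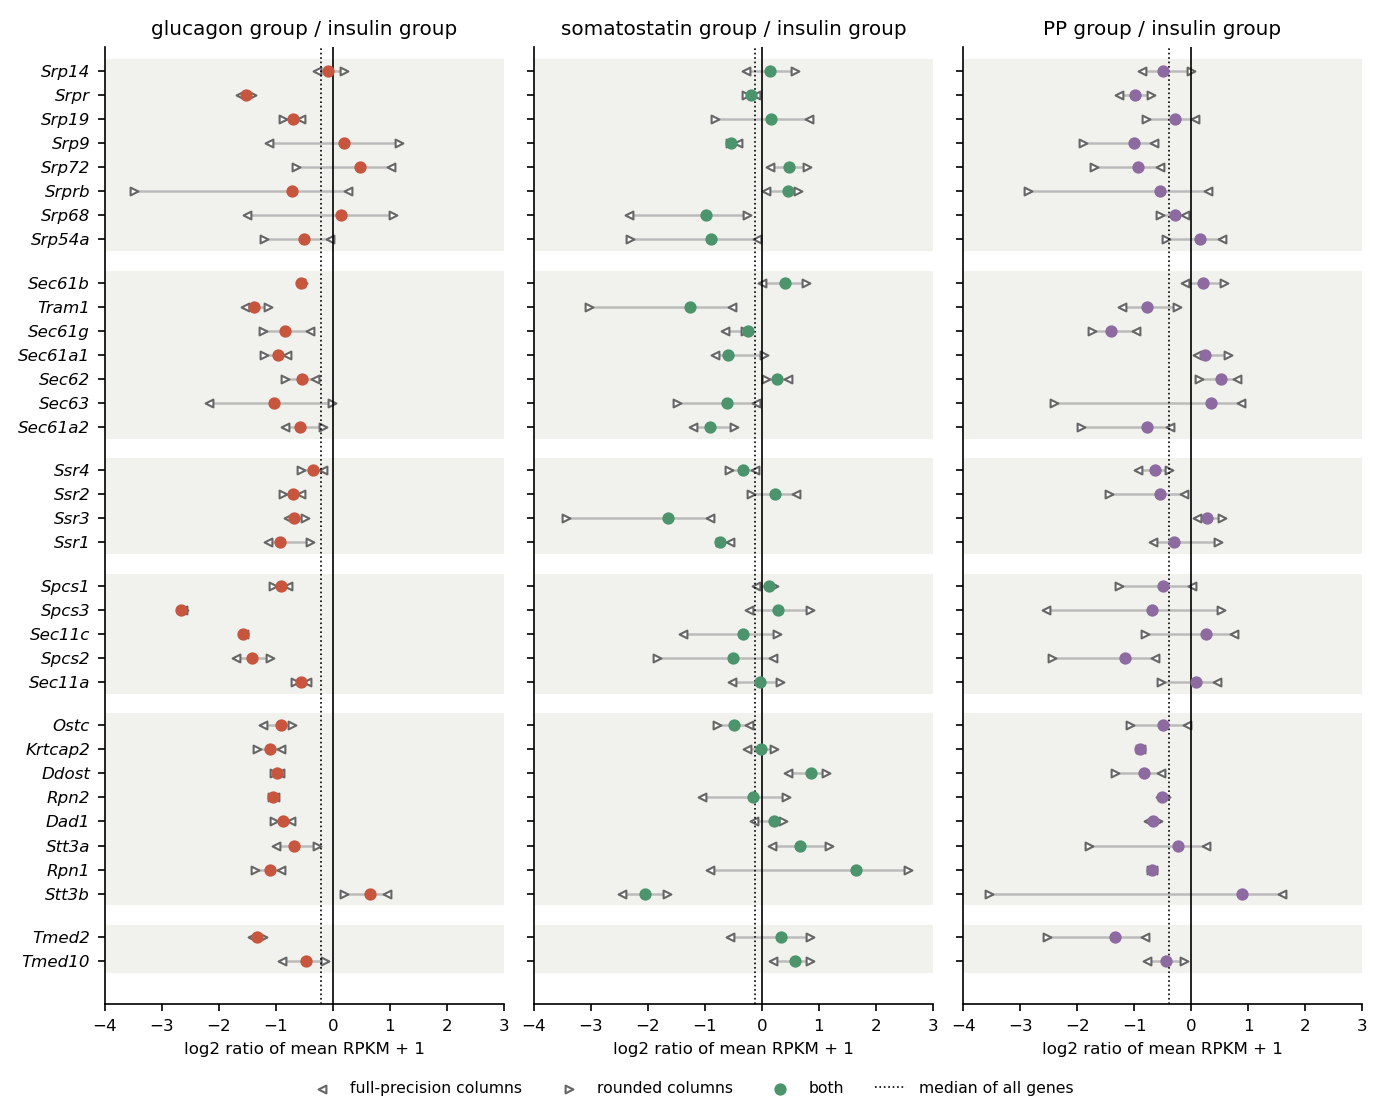
Log2 ratio of mean RPKM + 1 against insulin cells (x axis) for each member (y axis, by role) in 3 panels, with filled points for all cells, open triangles for each column set, a solid line at 0 and a dotted line at the median of all genes. In the glucagon panel 30 of 34 filled points lie left of 0, and in the somatostatin and PP panels the triangles lie farther apart.

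Signal peptidase showed the lowest ratios of any role in glucagon cells. Its 5 genes had a median log2 ratio of -1.41, all 5 were below 0, and their sum had a median of 359 RPKM in glucagon and 855 RPKM in insulin cells. Spcs3 (chr8:54520433-54529998, GRCm38), an accessory subunit required for cleavage, had medians and quartiles of 112 (26.4 to 287) RPKM in insulin cells, 5.48 (1.94 to 19.5) in glucagon cells, 24.8 (1.19 to 461) in somatostatin cells and 11.2 (6.06 to 119) in PP cells. Its means were 196, 30.3, 238 and 121 RPKM, and 369 of 395, 26 of 33, 10 of 13 and 10 of 11 cells reached 1 RPKM, in the same order of groups. Over all cells the glucagon group had an upper quartile below the lower quartile of insulin cells, while single cells of both groups overlapped. In the full-precision columns these quartiles were 20.6 and 37.3 RPKM. In the rounded columns they were 18.6 and 7.28 RPKM, so there the quartile ranges overlapped. The log2 ratio of Spcs3 was -2.65, with -2.62 from full-precision columns and -2.62 from rounded ones. The share of cells at 1 RPKM or more was 93.4% (95% exact binomial interval 90.5% to 95.7%) in insulin and 78.8% (61.1% to 91.0%) in glucagon cells. At an equal estimated depth of 250000 reads per cell, a read was present in 93.9% and 84.4% of cells.

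Sec11c (chr18:65800578-65817660) and Sec11a (chr7:80915379-80947550) encode the alternative catalytic subunits of signal peptidase. Sec11c had medians and quartiles of 141 (48.1 to 275) RPKM in insulin cells, 16.1 (0.674 to 77.6) in glucagon cells, 54.4 (11.8 to 157) in somatostatin cells and 99.7 (17.6 to 188) in PP cells. The means of Sec11c were 182, 60.9, 144 and 220.1 RPKM, with 360 of 395, 24 of 33, 12 of 13 and 9 of 11 cells at 1 RPKM. Its log2 ratio in glucagon cells was -1.57, and -1.56 and -1.55 in the 2 column sets. For Sec11a the medians and quartiles were 82 (2.2 to 195) RPKM in insulin cells, 13.4 (0.509 to 143) in glucagon cells, 28.9 (1.13 to 150.2) in somatostatin cells and 51 (0 to 215) in PP cells. Sec11a means were 126, 85.6, 124 and 135 RPKM, with 310 of 395, 24 of 33, 10 of 13 and 7 of 11 cells at 1 RPKM. The Sec11a ratio in glucagon cells was -0.56, a smaller difference than that of Sec11c. Sec11c made up 59.1% of the summed means of the pair in insulin cells, 41.6% in glucagon, 53.7% in somatostatin and 62.1% in PP cells. Only in somatostatin cells did the gene with the higher mean differ between column sets. There the Sec11c share was 44.9% from full-precision columns and 57.2% from rounded ones. In the PP group 1 cell at 1332 RPKM held 55.0% of the Sec11c sum, and the PP ratio of Sec11c was 0.27 with it and -0.72 without the highest cell of each group. Sec11c was the higher of the pair in 250 insulin cells and Sec11a in 131, against 16 and 16 glucagon cells.

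Spcs1 and Spcs2 are the other accessory subunits. Spcs1 (chr14:30999826-31001666) led its role in insulin cells, and had medians and quartiles of 244 (99.6 to 426) RPKM in insulin cells, 152 (31.9 to 239) in glucagon cells, 224 (169 to 425) in somatostatin cells and 151 (83.4 to 344) in PP cells. Its means were 294, 157, 321 and 209 RPKM, with 377 of 395, 32 of 33, 13 of 13 and 10 of 11 cells at 1 RPKM, and its glucagon ratio was -0.90. Spcs2 (chr7:99837569-99870340) had medians and quartiles of 108 (53.8 to 201) RPKM in insulin cells, 25.2 (12.7 to 66.3) in glucagon cells, 98.7 (3.57 to 139) in somatostatin cells and 30.3 (17.7 to 97.5) in PP cells. Spcs2 means were 137, 51, 95.8 and 61.3 RPKM, with 383 of 395, 29 of 33, 11 of 13 and 9 of 11 cells at 1 RPKM, and its ratio was -1.41 in glucagon and -1.15 in PP cells. The difference from insulin cells was larger for Spcs2 than for Spcs1, and both were lower in glucagon cells in each column set.

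**Figure D4:**
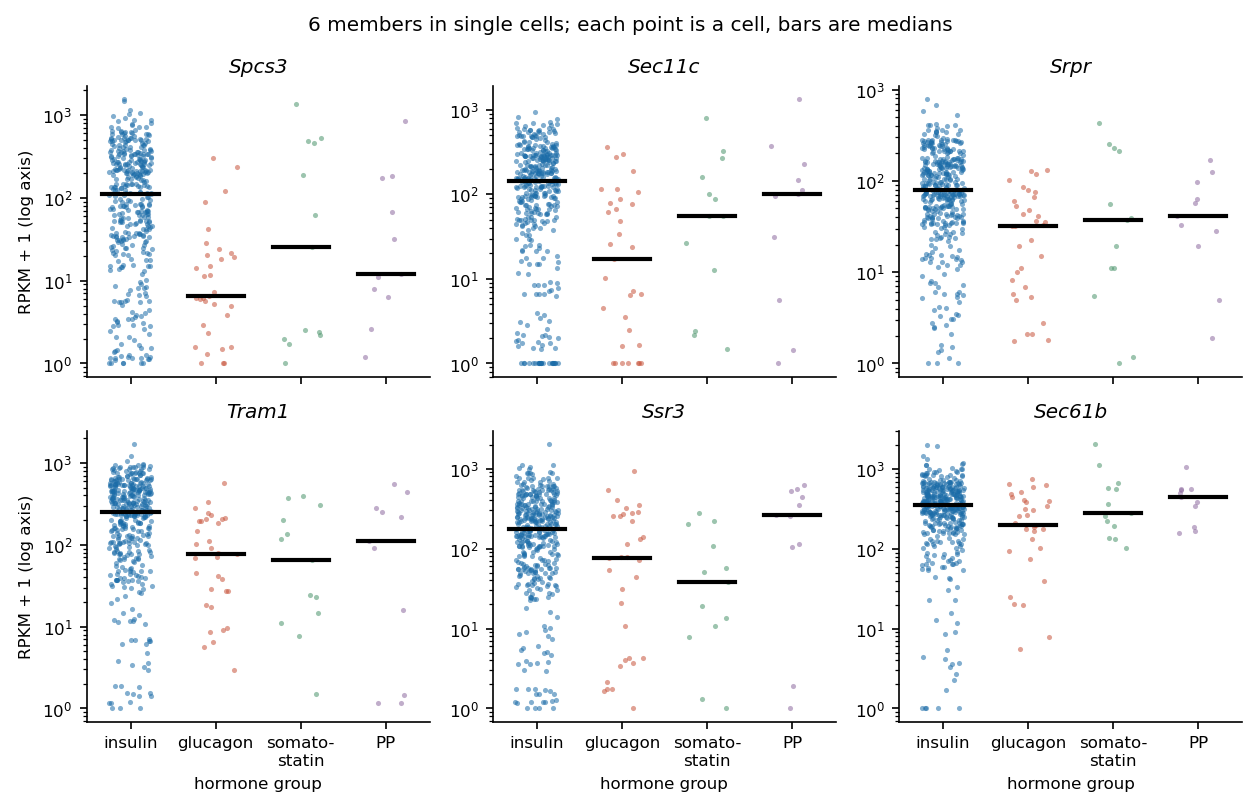
RPKM + 1 (y axis, log scale) of Spcs3, Sec11c, Srpr, Tram1, Ssr3 and Sec61b in each cell (points) of the 4 groups (x axis), with bars at medians. The Spcs3 median is 112 RPKM in insulin and 5.48 in glucagon cells, whereas Sec61b medians run from 199 to 452 RPKM over the 4 groups.

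Among SRP and receptor genes the glucagon ratios were mixed, with a median of -0.30 and 5 of 8 below 0. Srpr (chr9:35211203-35217003), the receptor subunit on which SRP docks, had the lowest ratio of this role. Its medians and quartiles were 79.3 (38.9 to 159) RPKM in insulin cells, 31.3 (5.8 to 59.8) in glucagon cells, 36.1 (10.1 to 209) in somatostatin cells and 40.5 (22.9 to 78.9) in PP cells. The means of Srpr were 114, 39.2, 99.2 and 57.2 RPKM, with 387 of 395, 31 of 33, 11 of 13 and 10 of 11 cells at 1 RPKM. Its glucagon ratio of -1.51 was -1.62 and -1.41 in the column sets. Srprb, which anchors that subunit in the membrane, had a ratio of -0.71, but 0.26 and -3.50 in the sets, so its direction differed between them.

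Srp14 (chr2:118475843-118479696), part of the SRP domain that slows translation, had the highest mean of this role in insulin cells. Srp14 medians and quartiles were 108 (33.2 to 198) RPKM in insulin cells, 62.4 (20.8 to 144) in glucagon cells, 96.8 (56.1 to 155) in somatostatin cells and 75.7 (32.6 to 101) in PP cells. Its means were 127, 120.1, 139.9 and 90.4 RPKM, with 357 of 395, 30 of 33, 12 of 13 and 10 of 11 cells at 1 RPKM. The glucagon ratio of Srp14 was -0.08, near 0, and 0.19 after rescaling without hormone and mitochondrial genes. The partner of Srp14 in that domain, Srp9 (chr1:182124737-182132415), had medians and quartiles of 69.1 (16.6 to 131) RPKM in insulin cells, 30.1 (1.56 to 74.9) in glucagon cells, 39.4 (12.5 to 127) in somatostatin cells and 20.4 (0 to 62.7) in PP cells. Srp9 means were 92.4, 106, 63.3 and 45.5 RPKM, with 348 of 395, 26 of 33, 11 of 13 and 7 of 11 cells at 1 RPKM. Its glucagon ratio of 0.20 rested on 1 cell at 2211 RPKM that held 63.2% of the group's sum, and was -1.16 without the highest cell of each group. Srp72 (chr5:76974701-76999935), a core SRP protein, had medians and quartiles of 47.2 (11.8 to 98.1) RPKM in insulin cells, 29 (10.3 to 61.4) in glucagon cells, 37.3 (13.7 to 180.4) in somatostatin cells and 18.9 (0.507 to 42.9) in PP cells. Srp72 means were 66.5, 93.4, 92.8 and 34.5 RPKM, with 364 of 395, 28 of 33, 12 of 13 and 7 of 11 cells at 1 RPKM. A single glucagon cell at 1550.3 RPKM held 50.3% of its sum, and its ratio of 0.48 became -0.44 without the highest cells. Of the other SRP genes, Srp19, which helps assemble the particle, had a ratio of -0.70, Srp54a, which binds the signal peptide, -0.51, and Srp68, the partner of Srp72, 0.14. Srp68 was -1.51 and 1.05 in the 2 column sets.

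All 7 genes of the Sec61 channel and its accessory proteins had means below those of insulin cells in the glucagon group, with a median ratio of -0.84. Tram1 (chr1:13564693-13589910), which sits beside the channel and helps some chains to enter, had medians and quartiles of 248 (84.7 to 467) RPKM in insulin cells, 76.7 (26.2 to 195) in glucagon cells, 64.5 (13.6 to 199.7) in somatostatin cells and 111 (7.69 to 268) in PP cells. Its means were 307, 117, 127 and 179 RPKM, with 381 of 395, 33 of 33, 12 of 13 and 8 of 11 cells at 1 RPKM. The glucagon ratio of Tram1 was -1.39, with -1.54 and -1.13 in the column sets, and its somatostatin ratio was -1.26. The somatostatin difference was larger in the rounded columns, with means of 30.1 RPKM in somatostatin and 252 in insulin cells. In the full-precision columns these means were 241 and 348 RPKM, which is less than 2-fold. Insulin cells held the highest mean of Tram1 among the 4 groups. Sec61b (chr4:47474661-47483233), a small channel subunit, had medians and quartiles of 354 (202 to 534) RPKM in insulin cells, 199 (101 to 399) in glucagon cells, 280.1 (192 to 584) in somatostatin cells and 452 (269 to 558) in PP cells. The means of Sec61b were 389, 265, 513 and 449 RPKM, with 389 of 395, 33 of 33, 13 of 13 and 11 of 11 cells at 1 RPKM. Its ratio was -0.55 in glucagon, 0.40 in somatostatin and 0.20 in PP cells. Sec61g (chr11:16501638-16508484), the other small subunit, had medians and quartiles of 175 (90.3 to 319.8) RPKM in insulin cells, 109 (58.5 to 167) in glucagon cells, 61.3 (19.6 to 275) in somatostatin cells and 33.6 (16.6 to 203) in PP cells. Sec61g means were 269.9, 150.0, 227 and 101 RPKM, with 393 of 395, 32 of 33, 12 of 13 and 11 of 11 cells at 1 RPKM. A single insulin cell at 10406 RPKM held 9.76% of the insulin sum.

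The channel itself is encoded by Sec61a1 (chr6:88503607-88518800) and its paralog Sec61a2 (chr2:5870977-5895432). Sec61a1 had medians and quartiles of 164 (36.4 to 332) RPKM in insulin cells, 44 (6.6 to 186) in glucagon cells, 96.1 (7.86 to 172) in somatostatin cells and 169 (4.64 to 427) in PP cells. Sec61a1 means were 221, 112, 147 and 261 RPKM, with 376 of 395, 29 of 33, 11 of 13 and 9 of 11 cells at 1 RPKM. Sec61a2 had medians and quartiles of 0.112 (0 to 2.86) RPKM in insulin cells, 0 (0 to 3.52) in glucagon cells, 0.368 (0 to 1.86) in somatostatin cells and 0.0875 (0.0365 to 0.926) in PP cells. The means of Sec61a2 were 5.82, 3.57, 2.63 and 2.98 RPKM, with 136 of 395, 11 of 33, 4 of 13 and 3 of 11 cells at 1 RPKM. Sec61a1 made up 97.4%, 96.9%, 98.2% and 98.9% of the summed means in the insulin, glucagon, somatostatin and PP groups. Their glucagon ratios were -0.97 and -0.58.

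Sec62 and Sec63 act with the channel on chains that enter after translation, and Sec63 recruits the chaperone BiP. Sec62 (chr3:30792876-30821263) had medians and quartiles of 28.4 (13.5 to 56.5) RPKM in insulin cells, 18.5 (8.1 to 28.1) in glucagon cells, 26.4 (11.3 to 82) in somatostatin cells and 42.7 (25.9 to 74.4) in PP cells. Its means were 39.4, 26.7, 47.8 and 57.5 RPKM, with 379 of 395, 32 of 33, 12 of 13 and 11 of 11 cells at 1 RPKM, and its glucagon and PP ratios were -0.54 and 0.53. Sec63 (chr10:42761496-42832514), whose promoter stretch is printed above, had medians and quartiles of 14.2 (2.24 to 39.3) RPKM in insulin cells, 1.77 (0.535 to 20.2) in glucagon cells, 7.17 (0.0919 to 27.3) in somatostatin cells and 5.71 (0.163 to 22.5) in PP cells. Sec63 means were 27.6, 12.9, 17.7 and 35.4 RPKM, with 322 of 395, 20 of 33, 8 of 13 and 7 of 11 cells at 1 RPKM. Its glucagon ratio of -1.04 came from the full-precision columns, which gave -2.17 where the rounded ones gave -0.01.

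The 4 TRAP genes, whose complex holds the channel and assists chains with weak signal peptides, were all lower in glucagon cells. Their median ratio was -0.69, and 0 of 4 were at least 2-fold lower, where 22.6% of all genes were. Ssr4 (chrX:73787023-73790828) was the member with the highest insulin mean. Its medians and quartiles were 475 (268 to 758) RPKM in insulin cells, 301 (168 to 686) in glucagon cells, 380.4 (125 to 818) in somatostatin cells and 258 (149 to 446) in PP cells. Ssr4 means were 560.0, 439, 443 and 359 RPKM, with 389 of 395, 33 of 33, 13 of 13 and 11 of 11 cells at 1 RPKM, and its ratio in glucagon cells was -0.35. Ssr3 (chr3:65379657-65392553) had medians and quartiles of 175 (57.4 to 344) RPKM in insulin cells, 74.9 (3.28 to 257) in glucagon cells, 36.9 (9.79 to 106) in somatostatin cells and 266 (108 to 482) in PP cells. The means of Ssr3 were 242, 150.4, 76.5 and 292 RPKM, with 376 of 395, 29 of 33, 11 of 13 and 9 of 11 cells at 1 RPKM. Its ratio was -0.68 in glucagon and -1.65 in somatostatin cells, where the column sets gave -0.91 and -3.43. Ssr1 and Ssr2 had glucagon ratios of -0.93 and -0.70.

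Of the 8 oligosaccharyltransferase genes 7 were lower in glucagon cells, with a median ratio of -0.95. At least 2-fold lower were 3 of the 8, where 22.6% of all genes were. Ostc (chr3:130695917-130709444), a subunit that links the enzyme to the channel, had medians and quartiles of 353 (118 to 585) RPKM in insulin cells, 187 (19.1 to 346) in glucagon cells, 149 (48.3 to 449) in somatostatin cells and 185 (123 to 469.9) in PP cells. Its means were 413, 219, 293 and 295 RPKM, with 381 of 395, 32 of 33, 12 of 13 and 11 of 11 cells at 1 RPKM, and its ratio was -0.91. Krtcap2, which also joins the enzyme to the channel, had means of 200.5, 93.2, 198 and 107 RPKM and a ratio of -1.10. The shared subunits Rpn2, Ddost and Dad1 had ratios of -1.05, -0.98 and -0.87. Rpn1 (chr6:88084473-88105304), another shared subunit, had medians and quartiles of 39.5 (9.89 to 83.1) RPKM in insulin cells, 16.2 (2.67 to 41.6) in glucagon cells, 16.3 (1.39 to 109) in somatostatin cells and 4.04 (0.209 to 57.6) in PP cells. Rpn1 means were 56.6, 25.7, 179 and 34.9 RPKM, with 367 of 395, 28 of 33, 11 of 13 and 6 of 11 cells at 1 RPKM. Its glucagon ratio was -1.11. Ddost (chr4:138304738-138312619) had medians and quartiles of 122 (48.3 to 213) RPKM in insulin cells, 55.7 (11.6 to 98.7) in glucagon cells, 106 (62 to 317) in somatostatin cells and 83.7 (32.4 to 134) in PP cells. The means of Ddost were 161, 81.1, 292 and 89.8 RPKM, with 385 of 395, 32 of 33, 13 of 13 and 10 of 11 cells at 1 RPKM.

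Stt3a (chr9:36729344-36767622) and Stt3b (chr9:115242470-115310468) are the alternative catalytic subunits, the former for chains still being made and the latter also for finished ones. Stt3a had medians and quartiles of 40.6 (9.75 to 96.4) RPKM in insulin cells, 22.6 (1.74 to 51) in glucagon cells, 25 (1.48 to 92.4) in somatostatin cells and 23.1 (1.57 to 66.5) in PP cells. Its means were 62.7, 38.8, 101 and 53.3 RPKM, with 345 of 395, 29 of 33, 10 of 13 and 8 of 11 cells at 1 RPKM. Stt3b had medians and quartiles of 1.39 (0 to 17.1) RPKM in insulin cells, 1.46 (0 to 34.3) in glucagon cells, 1.54 (0 to 2.34) in somatostatin cells and 0.526 (0.179 to 45.5) in PP cells. Stt3b means were 15.9, 25.7, 3.05 and 30.2 RPKM, with 214 of 395, 17 of 33, 7 of 13 and 5 of 11 cells at 1 RPKM. The glucagon ratios were -0.68 for Stt3a and 0.66 for Stt3b, the highest of all members, although the Stt3b medians of insulin and glucagon cells were close. Stt3a made up 79.8% of the summed means of the pair in insulin cells, 60.2% in glucagon, 97.1% in somatostatin and 63.8% in PP cells. Within the glucagon group it was 50.3% from full-precision columns and 72.8% from rounded ones. Within the PP group the Stt3a share was 60.9% and 98.3%, and within the somatostatin group 97.1% and 97.0%.

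Tmed2 (chr5:124540791-124550503) and Tmed10 (chr12:85340614-85374717) load cargo into vesicles that leave the ER. Tmed2 had medians and quartiles of 100.1 (30.3 to 198) RPKM in insulin cells, 22.7 (8.74 to 74.2) in glucagon cells, 53.6 (20.2 to 163) in somatostatin cells and 7.98 (3.34 to 107) in PP cells. Its means were 135, 52.8, 169 and 52.6 RPKM, with 381 of 395, 29 of 33, 11 of 13 and 8 of 11 cells at 1 RPKM. The ratio of Tmed2 was -1.33 in glucagon and -1.34 in PP cells. Tmed10 had means of 126, 90.9, 189 and 92.5 RPKM and ratios of -0.47 and -0.44.

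Somatostatin and PP cells were few, and the ratios share the insulin cells with the glucagon comparison. In somatostatin cells the median member ratio was -0.09 against -0.11 over 12675 genes, and 19 of 34 members were below 0, where 53.4% of genes were. Members at least 2-fold lower were 3, Stt3b (-2.06), Ssr3 (-1.65) and Tram1 (-1.26), 8.82% of members against a background of 29.1%. Of these 3, only 1, Stt3b, was at least 2-fold lower in both column sets. A single member was at least 2-fold higher, Rpn1 (1.64), against 20.0% of genes. The Rpn1 mean came from a few cells, the highest at 889 RPKM, since its group median of 16.3 RPKM was below the 39.5 RPKM of insulin cells. Rpn1 was -0.90 from full-precision columns and 2.56 from rounded ones. Ddost (0.86) and Stt3a (0.67) followed it. The Ddost median of 106 RPKM in somatostatin cells was below the 122 RPKM of insulin cells. A somatostatin cell at 1380 RPKM held 36.3% of the group's Ddost sum. For Stt3a 1 somatostatin cell at 789.9 RPKM held 60.4% of the group's sum, and its ratio was -0.50 without the highest cell of each group and -0.68 with group medians. Without the highest cells 9 of 34 members took the other direction in somatostatin cells and 5 in PP cells. Hormones held a median of 17.1% of RPKM in somatostatin and 45.1% in insulin cells. Rescaled without hormone and mitochondrial genes, 28 members were below 0 in place of 19, with a median of -0.45, and the median of all genes was also -0.45.

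In PP cells the median member ratio was -0.49 against -0.39 over 12721 genes, and 25 of 34 members were below 0, where 61.5% of genes were. Members at least 2-fold lower were 4, Sec61g (-1.40), Tmed2 (-1.34), Spcs2 (-1.15) and Srp9 (-1.01), 11.8% of members against a background of 33.2%. Of these 4, 0 were at least 2-fold lower in both column sets, and the full-precision columns gave the smaller difference for each. Srp9 was -0.64 from full-precision columns and -1.90 from rounded ones. At least 2-fold higher were 0, against 16.0% of genes. Stt3b (0.89), Sec62 (0.53) and Sec63 (0.35) had the highest ratios. Stt3b was 1.60 from full-precision columns and -3.55 from rounded ones, and Sec63 0.88 and -2.40, so both turned direction between sets of 6 and 5 cells. The ductal marker Spp1 had a median of 171 RPKM in PP cells, and its part in these ratios was not tested.

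Genes that work beside the members were read in the same way for glucagon against insulin cells. These lists were drawn from known pathways and hold no member. The counts below stand against the 22.6% of all genes that were at least 2-fold lower, and the genes named averaged 5 RPKM or more in either group unless said otherwise. Of 18 ER chaperones and stress factors 11 were at least 2-fold lower, with a median ratio of -1.28. Sdf2l1, a BiP cofactor, had means of 2.27 in glucagon and 54.4 RPKM in insulin cells (-4.08), and the protein disulfide isomerase gene Pdia4 12.8 and 63.4 RPKM (-2.22). The highest ratios in that list at 5 RPKM or more were those of Herpud1 (-0.01) and Atf6 (-0.75), and Ern1, at a lower level, had 0.14. Other translocon and oligosaccharyltransferase genes had a median of -1.32 with 7 of 11 at least 2-fold lower, led by Sil1 (-2.36), the nucleotide exchange factor of BiP, and Serp1 (-1.83), while Dnajc1 (0.09) and Srp54b (-0.22) were highest. Of the other p24 genes 4 of 7 were at least 2-fold lower, with a median of -1.47. Tmed6 averaged 0.203 RPKM in glucagon and 25.3 in insulin cells (-4.45) and Tmed1 was -2.36, while Tmed3 (0.35) and Tmed5 (-0.95) were highest. Glycan trimming and lectin chaperone genes had a median of -0.93 with 5 of 10 at least 2-fold lower, from Uggt1 (-2.06), which rechecks folding, and Calr (-1.30) to Prkcsh (-0.60) and Ganab (-0.24) at 5 RPKM or more, and Man1b1, at a lower level, had 0.29. The dolichol pathway, which builds the sugar tree, had a median of -0.72, with 8 of 23 at least 2-fold lower and 1 higher. The gene past 2-fold on the higher side was Alg13 (1.31), named after its value was seen, with a mean of 4.66 RPKM in glucagon cells and a ratio of -1.15 from full-precision columns. Among genes that averaged 5 RPKM or more in either group, the ratio was lowest for Alg14 (-2.98) and Srd5a3 (-2.51) and highest for Alg11 (0.96). The ER membrane protein complex, which inserts other membrane proteins, had a median of -0.94 and 3 of 9 at least 2-fold lower, from Emc4 (-2.32) and Emc6 (-1.23) to Emc1 (0.32) and Emc8 (0.50). Tail-anchored protein insertion genes had a median of -0.06 and 0 of 7 past 2-fold, from Asna1 (-0.87) and Camlg (-0.85) to Wrb (0.46) and Get4 (0.70).

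Within the 395 insulin cells the members varied from cell to cell. Their coefficient of variation had a median of 1.01, from 0.707 for Sec61b to 2.83 for Sec61a2, and that of 2027 other genes that averaged 20 RPKM or more and reached 1 RPKM in at least 50% of insulin cells was 1.52. Among genes that averaged 100 RPKM or more it was 0.94 for 21 members and 1.07 for 453 other genes. Dad1 (0.736), Krtcap2 (0.745) and Ssr4 (0.767) followed Sec61b at the low end.

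Spearman correlations were computed in each column set and averaged, as a description, since the cells share library chemistry, depth and quality. The correlation of a member with the mean z score of log2(RPKM + 1) of the other members had a median of 0.47, from 0.14 for Sec61a2 to 0.68 for Ssr1, and 33 of 34 members reached 0.3, where 24.1% of the 2027 other genes did against all members. The other genes had a median of 0.22. Sec61a2 and Stt3b were the members with means under 20 RPKM. With the number of detected genes held constant by partial rank correlation, the medians were 0.34 and 0.07. The members' correlation with insulin RNA had a median of -0.01 and ran from -0.11 for Stt3a to 0.09 for Spcs2. The other genes had a median of -0.07. At 0.3 or more were 0 members and 0.148% of other genes. That share was 3 genes, the highest at 0.9961, and Ins1 and Ins2, which make up insulin RNA, pass the level filter. It is therefore no independent background. The members' correlation with detected genes had a median of 0.33, and 21 of 34 reached 0.3 against 31.1% of other genes. The summed members had correlations of 0.38 with detected genes, 0.07 with reads, -0.02 with insulin RNA and -0.41 with the mitochondrial share. The part of cell quality in the members' correlations was not tested beyond the partial correlation.

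**Figure D5:**
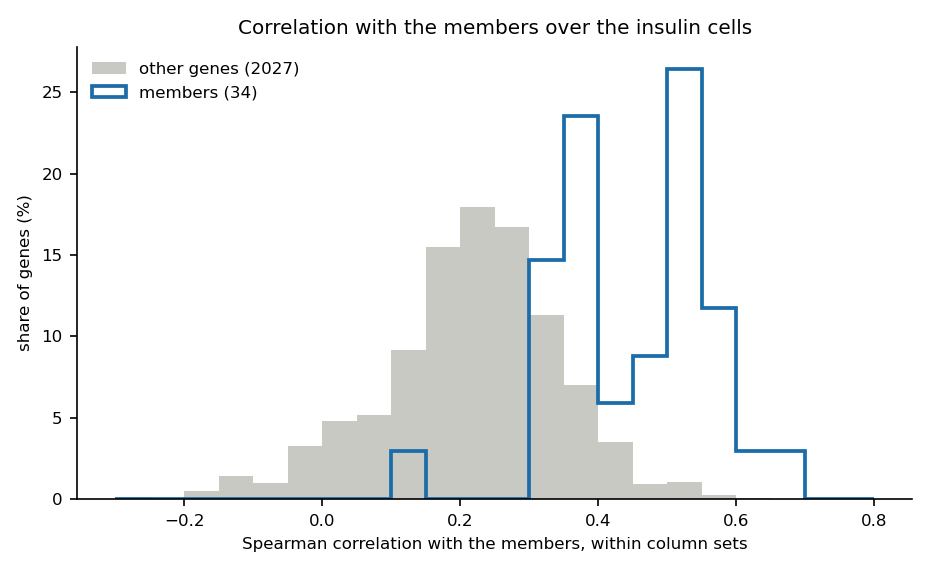
Share of genes (y axis, %) by their Spearman correlation with the members over 395 insulin cells (x axis), for 2027 other genes (filled) and the 34 members (outline). The members' median is 0.47 and that of the other genes 0.22.

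By role the pairs did not stand out. Of 561 pairs of members 557 had a correlation above 0, with a median of 0.20 over 94 pairs of the same role and 0.24 over 467 pairs of different roles. Ssr1 of TRAP and Spcs3 of signal peptidase had the highest pair value (0.64), followed by Tram1 with Ssr1 (0.57), Sec61a1 with Ssr1 (0.56) and Ssr1 with Ssr3 (0.56). Genes outside the list most like the members in insulin cells were Pdia6 (0.65), Pdia3 (0.59), Golt1b (0.59), Hsp90b1 (0.58), Nucb2 (0.58), Manf (0.58), Fkbp11 (0.55), Bet1 (0.55), Erp44 (0.55) and Tmed3 (0.55), each the average correlation with the members over the 2 column sets. Among these, Pdia6, Hsp90b1 and Manf are in the chaperone list above, Pdia3 in the lectin chaperone list and Tmed3 in the p24 list. The 15 chaperone and stress genes that passed the level filter had a median correlation of 0.45 with the members, and 4 dolichol pathway genes 0.25. Lowest of the 15 were the stress transcription factor genes Xbp1 (0.12), Atf4 (0.17) and Ddit3 (0.22). These lay below the median of the 2027 other genes, 0.225, and the rest of the 15 lay above it.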

How the data were processed

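Per the labels' protocols, islet cells were held on the C1 chip, the SMARTer Ultra Low kit gave cDNA and Nextera XT gave the libraries. The authors deposited RPKM in a single table, that is read numbers divided by gene length and scaled by a cell's mapped total, with genes named by Entrez ID. Per the submitters' processing notes, the build was GRCm38 (mm10), with FastQC and CASAVA 1.8.2 among the tools. Not given in the sources used here are the aligner, the counting program and its annotation. RefSeq symbols matched 39725 of 44448 IDs. Ratios of RPKM between cells gave back whole reads, used for depth and for thinning to 250000 reads only. Of 7480 member values under 100 reads 100.0% came out whole within 0.05, which the choice of each gene's unit largely required. The depth scale was the value shared by 3 of 5 mitochondrial genes solved. Recovered reads summed to a median of 65.5% of that depth, and to 6.9% in the lowest cell, so depths are estimates. In simulated data 2957 of 3000 genes were solved with 100.0% of counts right, which did not test the depth scale.

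No count model and no test was used, since cells of 1 sample are not replicates. Groups were compared by log2((group mean + 1) / (insulin mean + 1)) over genes that averaged 1 RPKM or more in either group, and a 2-fold difference was called. Intervals on shares are exact (Clopper-Pearson) and cover counting error only. Doublets were treated by leaving out cells with no hormone at 90%, and no doublet caller was run. Positions and promoters are from RefSeq, GRCm38.p6, and the transcribed bases of 26 of 27 member promoter windows were found in a transcript of the gene. Members and lists were chosen with earlier results of these data known. All members are named. Full values go to the highest member of each role, the 3 lowest and 3 highest ratios of each comparison among members with a mean of at least 5 RPKM, and the paralog pairs. From each other list the 2 lowest and 2 highest glucagon ratios at that level are named, except 1 gene that is not reported here, and the 10 genes outside the list most correlated with the members. Alternatives changed the pseudocount, level and cell filters, hormone share, scaling, summary, column set and matching. Python 3.11.15, numpy 2.4.6, pandas 2.3.3 and scipy 1.17.1 were used.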

Additional observations from a re-analysis of the deposited data

How the results depend on the processing

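Over the alternatives run, the median member ratio of glucagon against insulin cells stayed below 0, and its range was -0.57 to -1.12. Members at least 2-fold lower there numbered 10 (22.6% of all genes were as low), and, each with the share of all genes in brackets, 6 after rescaling without hormone and mitochondrial genes (18.8%), 18 with group medians (34.0%), 19 with means of log2(RPKM + 1) (7.49%), 16 in the rounded columns (29.4%) and 17 without each gene's highest cell in each group (37.7%), an alternative chosen after seeing the data. Without the highest cells the gap between the member median and that of all genes was -0.32 in place of -0.58. Members at least 2-fold higher numbered 0, 1 from full-precision columns and 2 from rounded ones. For somatostatin cells the median ratio of -0.09 became -0.76 with group medians, -0.70 with means of logs and 0.056 in the rounded columns. The 3 members lower (29.1%) became 5 with a pseudocount of 0.1 RPKM (33.6%), in the full-precision columns (32.8%) and with matched insulin cells (28.1%), 6 with a hormone share of 98% (46.0%) and in the rounded columns (47.9%), 7 after rescaling (35.1%), 12 with medians (38.1%), 10 with means of logs (9.69%) and 10 without the highest cells (53.3%). The gap of medians there, 0.02, was 0.93 in the rounded columns, -0.56 with means of logs and 0.40 without the highest cells. The single member higher, Rpn1, became 0 with 3000 genes per cell, with medians, with means of logs and with full-precision columns, and 3 with rounded ones. Rpn1 turned to -1.23 with medians, -0.25 with means of logs and -0.90 with full-precision columns, and Stt3b to 0.084 with medians. For PP cells the 4 members lower (33.2%) became 1 with 3000 genes per cell (31.6%), 16 with a hormone share of 98% (41.6%), 7 after rescaling (35.7%), 10 with medians (41.7%), 11 with means of logs (11.2%), 14 in the rounded columns (52.0%) and 14 without the highest cells (59.3%), and the 0 higher became 1 with 3000 genes, in the full-precision columns and with matched cells. In insulin cells the members' correlation with each other moved from 0.47 to 0.34 given detected genes. Their correlation with insulin RNA, -0.01, became 0.015 in the full-precision columns, 0.071 given detected genes and 0.039 after rescaling. Their correlation with detected genes, 0.33, was 0.20 from full-precision columns and 0.43 from rounded ones. The cause of these changes was not tested. Of 172 values of the comparisons under alternatives 132 stayed within 1.5 times the main count or kept their direction and size, as did 250 of 288 values of single genes. No paired analysis was possible because the labels give 1 group with no replicates. With 13 and 11 cells, the somatostatin and PP means lean on single cells, and no value here has an error over animals.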
